A study of Mus musculus with 15 samples.

Results

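The genes described here are 10 genes known mostly from fat cells, Adipoq, Lep, Plin1, Plin4, Cidec, Cfd, Fabp4, Lpl, Pparg and Retn, measured in RNA of the whole mouse epididymis. The members are taken by gene symbol, and all 10 were found among the 41591 gene identifiers of the read count table. The epididymis, the coiled duct in which sperm mature, lies against a fat pad, and the libraries were made from the whole organ, teased apart and rinsed in saline before RNA was extracted. The 15 libraries came from mice aged 7 weeks with 5 libraries in each of 3 genotypes of Plag1, a zinc finger transcription factor: knockout (KO, Plag1 -/-), heterozygous (HET, Plag1 -/+) and wild type (WT). All 3 genotypes carry the same strain name in the labels, Brown Swiss, and no further allele or treatment is named there. How the Plag1 allele was made, and whether the fat pad was trimmed, are not given in the sources used here. A library is named by its genotype and the number in its label, such as KO-695. The labels do not say that each number is a separate animal, so p-values measure the spread between these libraries.

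Fat cells of white fat store triglyceride in one large droplet. Lipoprotein lipase (Lpl) frees fatty acids from blood lipoproteins, Fabp4 binds them inside the cell, and perilipins and Cidec coat and enlarge the droplet. The same cells secrete adiponectin (Adipoq), leptin (Lep), resistin (Retn, a fat cell hormone in rodents) and adipsin (Cfd), a protease of the complement system. Pparg, a nuclear receptor that pairs with RXR, and the C/EBP factors switch on much of this programme.

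The RefSeq promoter table (GRCm38.p6, 250 bases before to 50 bases after each gene start) held 8 of the 10 genes, in 11 windows. Fabp4 and Lpl had no entry in it. The windows of Adipoq, Plin1, Lep and Pparg are shown because these genes had closely similar profiles over the 15 libraries, as given further on, as did Fabp4, which has no window here. Capitals mark matches, on either strand, to AGGTCA (the core bound by nuclear receptors), AGGTCANAGGTCA (a pair of such cores in tandem, the arrangement bound by Pparg with RXR), TTGCNNAA (C/EBP), CCAAT or TATAA. Each is written 5′ to 3′ on the strand of the gene.
Adipoq, chr16:23146286-23146585, plus strand: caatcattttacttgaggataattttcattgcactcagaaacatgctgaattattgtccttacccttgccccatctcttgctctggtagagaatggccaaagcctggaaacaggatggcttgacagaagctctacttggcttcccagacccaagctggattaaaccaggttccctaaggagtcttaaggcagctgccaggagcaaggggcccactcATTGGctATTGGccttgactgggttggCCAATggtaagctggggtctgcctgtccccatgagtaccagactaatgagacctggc
Lep, chr6:29059971-29060270, plus strand: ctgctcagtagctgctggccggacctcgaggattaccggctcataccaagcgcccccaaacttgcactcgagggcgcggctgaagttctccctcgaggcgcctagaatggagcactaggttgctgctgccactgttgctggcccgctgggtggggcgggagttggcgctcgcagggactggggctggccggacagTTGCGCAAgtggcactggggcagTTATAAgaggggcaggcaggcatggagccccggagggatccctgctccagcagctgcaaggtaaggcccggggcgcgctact
Plin1, chr7:79732727-79733026, minus strand: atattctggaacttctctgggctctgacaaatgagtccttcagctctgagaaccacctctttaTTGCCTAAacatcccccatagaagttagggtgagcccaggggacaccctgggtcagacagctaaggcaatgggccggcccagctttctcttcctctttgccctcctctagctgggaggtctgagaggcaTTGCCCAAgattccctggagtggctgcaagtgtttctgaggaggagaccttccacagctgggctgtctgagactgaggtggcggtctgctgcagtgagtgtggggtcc
Pparg, the most downstream of its listed starts, chr6:115421816-115422115, plus strand: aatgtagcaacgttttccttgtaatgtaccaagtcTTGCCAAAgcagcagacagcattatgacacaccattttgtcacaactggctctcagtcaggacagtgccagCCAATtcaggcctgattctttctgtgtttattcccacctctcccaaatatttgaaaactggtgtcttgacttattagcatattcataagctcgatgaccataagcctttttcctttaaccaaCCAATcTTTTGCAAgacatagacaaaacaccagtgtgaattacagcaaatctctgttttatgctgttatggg

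The Adipoq window held CCAAT with its first base 34, 27 and 7 bases before the gene start. The Lep window held a TTGCNNAA match that reads the same on both strands at 55 bases before the start, and TATAA at 32 and 31 bases, on opposite strands. In Plin1, TTGCNNAA lay at 187 and 58 bases before the start. In this Pparg window, TTGCNNAA lay at 215 and 16 bases and CCAAT at 144 and 22 bases. Over the 11 windows of the fat cell genes, TTGCNNAA was in 4 windows, of Cidec, Lep, Plin1 and Pparg, against 10.8% of all 32851 windows in the table. CCAAT was in 4 windows, of 3 genes, against 37.4% of all windows, and TATAA in 3 windows against 24.9%. AGGTCA was in 2 windows, both of Pparg, against 16.3%. The tandem motif was in 0 of the 11 windows and in 0.0396% of all windows. These matches describe letters within 300 bases and say nothing on whether a factor is bound.

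Library totals lay between 20304440 (WT-719) and 41957608 counts (KO-696), and a count of 3 corresponded to 0.0693 to 0.15 CPM (the CPM being counts of a gene scaled to one library size), depending on the library. Plag1 itself averaged 8.32 ± 0.972 CPM in KO, 10.1 ± 1.38 CPM in HET and 12.7 ± 0.869 CPM in WT libraries (SD, n = 5 each), a fall by 0.61 ± 0.10 (SE) on the log2 scale in KO against WT (edgeR adjusted p = 0.00493). Counts over the whole gene do not show how the allele changes it, so this is a partial check of the labels. Genes of the epididymal epithelium were abundant in every library, the 13 listed, led by Crisp1, summing to 45000 to 66700 CPM in KO, 56500 to 67500 CPM in HET libraries and 55300 to 64600 CPM in WT libraries. A few libraries stood apart. The listed skeletal muscle genes summed to 6290 CPM in KO-739, to 49.2 to 74.2 CPM in the remaining KO libraries, to 36.7 to 134 CPM in HET libraries and to 53.8 to 100 CPM in WT libraries. KO-738 and HET-693 had 1.29% and 1.3% of their counts in an 18S ribosomal RNA gene, against at most 0.509% in the other libraries. All 5 WT numbers are above 700, as are 3 HET and 2 KO numbers, while the other 3 KO and 2 HET numbers are below it. What the numbers mean is not stated, so genotype and number range cannot be fully told apart. With number range as a term, the log2 difference of KO against WT was smaller for each of the 10 genes, at 1.15 for Adipoq, 1.48 for Lep, 1.16 for Plin1, 0.11 for Plin4, 1.09 for Cidec, 0.74 for Cfd, 1.73 for Fabp4, 1.78 for Lpl, 1.02 for Pparg and 2.19 for Retn, to be read beside the values given per gene further on.

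The 10 genes were present in every library at low to moderate level, and their KO average was higher than the WT average in all 10, by 0.25 to 2.67 on the log2 scale. With edgeR's quasi-likelihood test over 19388 genes, Lpl alone among the 10 rose in KO against WT epididymides (adjusted p = 0.0182), and the other 9 did not pass. The share of all genes tested that passed in this comparison was 6.00%, with 4.40% higher and 1.60% lower, so 1 of 10 is near the background. Their median log2 difference was 2.08, beside -0.012 over all genes tested, and 1.08 without KO-695. None of the 10 passed in HET against WT, with edgeR, DESeq2 or limma, where edgeR and limma each passed 0.00% of all genes, DESeq2 passed 0.00516% (1 gene) and 854 genes had an unadjusted p under 0.05 in edgeR. None passed in KO against HET with edgeR, where 1.96% of all genes did, with 1.61% higher, while DESeq2 called Lpl (6.41% of all genes) and limma called Lpl and Plin4 (10.1% of all genes). In KO against WT, DESeq2 called 5 of the 10 (Adipoq, Lep, Fabp4, Lpl and Retn), beside 9.95% of all genes, and limma called 2 (Lpl and Pparg), beside 8.73%, all higher in KO. The median of the 10 was 0.12 in HET against WT and 1.64 in KO against HET, beside 0.007 and -0.01 over all genes. Both KO comparisons use the same KO libraries. At an unadjusted p under 0.05, 8 of the 10 differed in KO against WT, where 23.6% of all genes did, 0 in HET against WT, where 4.40% did, and 8 in KO against HET, where 20.8% did. All 10 passed the filter on low counts. In bulk RNA, fewer or more fat cells and less or more RNA per fat cell cannot be told apart, and whether this RNA came from fat attached to the organ was not tested.

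**Figure D1:**
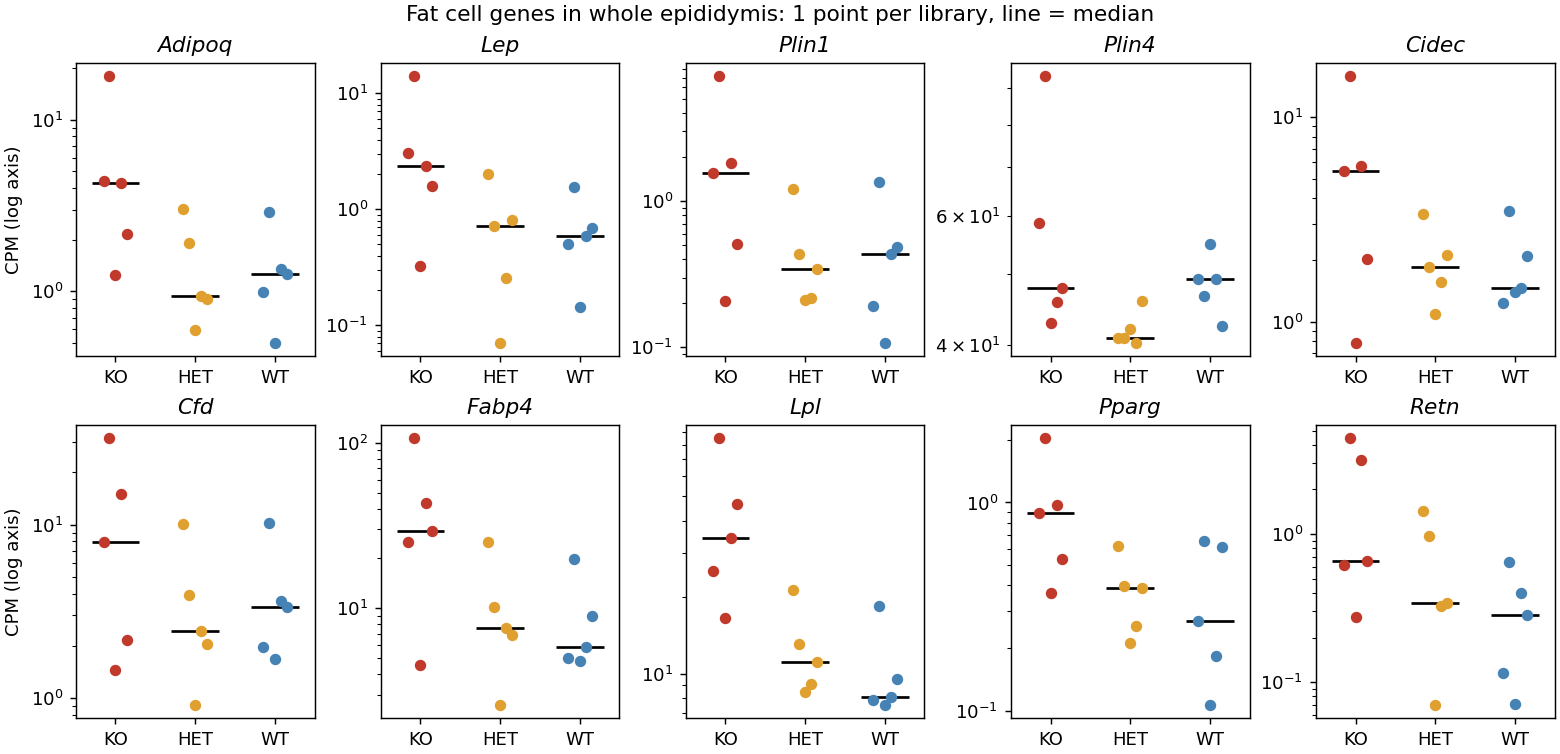
Level of each of the 10 fat cell genes (CPM, log axis) in KO, HET and WT whole epididymis, 1 point per library and 5 libraries per genotype, with a line at the median. In each panel the highest point is KO-695 and the KO points overlap the HET and WT points; Lpl and Fabp4 show the KO group lying above most others, and Plin4 the narrowest spread.

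Lpl, which splits triglyceride in blood lipoproteins so that tissues can take up fatty acids (NCBI gene 16956, chr8:68880555-68906932, plus strand, GRCm38.p6), was the gene that passed. It had 25.4, 85.0, 16.6, 34.3 and 46.6 CPM in KO-694, KO-695, KO-696, KO-738 and KO-739, 21.3, 13.1, 8.46, 9.06 and 11.1 CPM in HET-692, HET-693, HET-715, HET-718 and HET-735, and 7.83, 18.4, 7.54, 8.07 and 9.49 CPM in WT-709, WT-719, WT-720, WT-723 and WT-726. The order of libraries within each genotype is the same in all such lists. Of the KO libraries, 4 lay above every WT library, while KO-696 lay below WT-719 and above the other 4 WT libraries. The means were 41.6 ± 26.7 CPM in KO, 12.6 ± 5.17 CPM in HET and 10.3 ± 4.59 CPM in WT (SD, n = 5 each). KO was 2.03 ± 0.42 (SE) higher than WT on the log2 scale, 4.09-fold, with a 95% interval of 1.12 to 2.94. The rise in Lpl was called with each library left out in turn, from 1.60 without KO-695 (adjusted p = 0.0331) to 2.34 without WT-719, and the highest adjusted p was 0.0499. It was not called when KO and WT libraries were fitted alone (2.04, adjusted p = 0.0518), with number range as a term (1.78, adjusted p = 0.0997) or among numbers of 700 and above (2.00, adjusted p = 0.0946, 2 KO and 5 WT libraries). In these fits 1.52%, 0.913% and 0.00% of all genes were called. Against HET, Lpl was 1.72 ± 0.42 higher in KO (adjusted p = 0.052, 95% interval 0.82 to 2.61), by 1.29 among numbers below 700 (adjusted p = 0.555, 3 KO and 2 HET libraries) and by 2.11 among those of 700 and above (adjusted p = 0.246, 2 KO and 3 HET libraries), and HET differed from WT by 0.31 (adjusted p not under 0.981 for any of the 10 genes in that comparison).

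Fabp4, the fatty acid carrier of the fat cell cytoplasm (NCBI gene 11770, chr3:10204342-10208616, minus strand), had the highest mean level of the 10 per kilobase of transcript in each genotype. Within single libraries, Fabp4 was above Plin4 per kilobase in 2 of 5 WT and 3 of 5 HET libraries. It measured 25.2, 107, 4.55, 43.3 and 29.5 CPM in the KO libraries, 25.1, 10.1, 2.61, 7.6 and 6.92 CPM in HET libraries and 4.99, 19.7, 4.79, 5.85 and 8.96 CPM in WT libraries. As with Lpl, 4 KO libraries were above every WT library, but KO-696 was below all 5. The log2 difference of KO against WT was 2.26 ± 0.77 (adjusted p = 0.0956, 95% interval 0.60 to 3.93), and 1.56 without KO-695. KO against HET gave 1.99 ± 0.75 (adjusted p = 0.155).

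Of the droplet genes, Plin1, the perilipin that gates lipolysis on the fat cell droplet (NCBI gene 103968, chr7:79721164-79732904, minus strand), was at low counts, 3 to 255 per library. It had 1.55, 7.13, 0.208, 1.82 and 0.507 CPM in KO, 1.21, 0.434, 0.211, 0.218 and 0.344 CPM in HET and 0.192, 1.35, 0.107, 0.438 and 0.489 CPM in WT libraries. KO-696 sat among the lowest of all 15 libraries and KO-695 was 34.3 times as high, so the genotypes overlapped. KO against WT was 2.19 ± 0.86 (adjusted p = 0.14), and 1.02 without KO-695. Cidec, which enlarges droplets by moving lipid between them (NCBI gene 14311, chr6:113424634-113435760, minus strand), ranged over 0.785 to 15.8 CPM in KO, 1.09 to 3.35 CPM in HET libraries and 1.23 to 3.46 CPM in WT libraries, with 3 KO libraries above every WT library. Its log2 difference of KO against WT was 1.65 ± 0.61 (adjusted p = 0.117), and 0.88 without KO-695.

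Plin4, a perilipin of small, newly formed droplets (NCBI gene 57435, chr17:56100587-56109948, minus strand), did not follow the others. It had 58.7, 93.3, 42.8, 45.8 and 47.8 CPM in KO, 40.8, 40.8, 42.0, 40.2 and 45.9 CPM in HET and 49.2, 46.7, 55.0, 49.2 and 42.4 CPM in WT libraries. KO-695 was the highest here too, but 3 KO libraries lay within the WT range, and the KO median was 0.971 of the WT median. KO against WT was 0.25 ± 0.17 (adjusted p = 0.406, 95% interval -0.11 to 0.61), and 0.01 without KO-695. The annotation places Plin4 over Hdgfl2 on the opposite strand, and Cidec over the non-coding Gm52871. The kit keeps strand, but the strand setting of the counting is not given in the sources used here, so reads of these overlapping genes may not have been told apart.

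Among the secreted proteins, Adipoq, the insulin-sensitising hormone made almost solely by fat cells (NCBI gene 11450, chr16:23146536-23157968, plus strand), was counted 14 to 641 times per library. It had 4.41, 17.9, 1.25, 4.29 and 2.15 CPM in KO, 3.03, 1.92, 0.599, 0.946 and 0.903 CPM in HET and 0.998, 2.91, 0.5, 1.35 and 1.26 CPM in WT libraries. Of the KO libraries, 3 were above every WT library, and KO-739 and KO-696 were within the WT range. KO against WT was 2.13 ± 0.69 (adjusted p = 0.0815, 95% interval 0.64 to 3.61), with group means of 6.0 ± 6.8 CPM in KO, 1.48 ± 0.998 CPM in HET and 1.4 ± 0.904 CPM in WT (SD, n = 5 each). Leaving out KO-695 gave 1.13.

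Lep, which reports fat stores to the brain (NCBI gene 16846, chr6:29060221-29073876, plus strand), had the largest KO difference of the 10 and counts as low as 2 in a library. It had 3.06, 14.0, 0.323, 2.38 and 1.58 CPM in KO, 2.03, 0.723, 0.0705, 0.255 and 0.817 CPM in HET and 0.499, 1.55, 0.143, 0.585 and 0.693 CPM in WT libraries. Here 4 KO libraries were above every WT library, KO-739 by a narrow margin over WT-719, and KO-696 was within the WT range. HET-715 was below the level that 3 counts correspond to in that library, 0.106 CPM. KO against WT was 2.67 ± 0.92 (adjusted p = 0.095, 95% interval 0.70 to 4.63), and 1.43 without KO-695.

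Retn, the rodent fat cell hormone resistin (NCBI gene 57264, chr8:3655770-3659818, plus strand), had 0.619, 4.45, 0.277, 3.16 and 0.657 CPM in KO, 1.44, 0.977, 0.0705, 0.327 and 0.344 CPM in HET and 0.115, 0.652, 0.0714, 0.402 and 0.285 CPM in WT libraries. KO-695 and KO-738 lay above all other libraries, and the other 3 KO libraries lay within or next to the WT range. KO against WT was 2.63 ± 0.86 (adjusted p = 0.0801), and 1.99 without KO-695. Its counts were as low as 2 in HET-715 and WT-720 and 3 in WT-709. Retn had the largest difference of the 10 in HET against WT, 1.14 ± 0.93, which did not pass. Cfd, the complement protease adipsin (NCBI gene 11537, chr10:79890853-79892655, plus strand), ranged over 1.45 to 31.6 CPM in KO, 0.916 to 10.1 CPM in HET libraries and 1.68 to 10.2 CPM in WT libraries. Only 2 KO libraries were above every WT library, WT-719 being high, and KO against WT was 1.51 ± 0.85 (adjusted p = 0.31), 0.70 without KO-695 and 2.14 without WT-719.

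Pparg, the nuclear receptor that directs fat cell differentiation (NCBI gene 19016, chr6:115360879-115490404, plus strand), had 0.89, 2.04, 0.369, 0.971 and 0.537 CPM in KO, 0.618, 0.398, 0.211, 0.255 and 0.387 CPM in HET and 0.269, 0.652, 0.107, 0.183 and 0.611 CPM in WT libraries. It had the lowest mean of the 10 per kilobase in each genotype, and 3 KO libraries were above every WT library. KO against WT was 1.44 ± 0.51 (adjusted p = 0.0977, 95% interval 0.36 to 2.52), and 0.95 without KO-695.

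**Figure D2:**
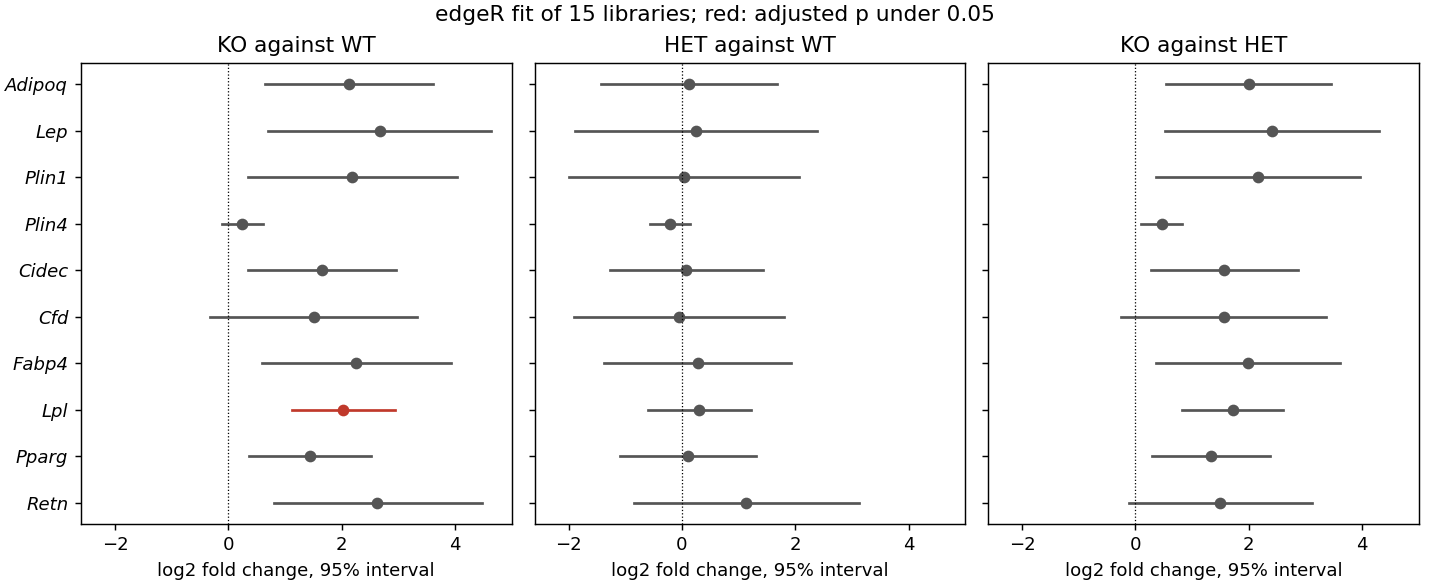
Log2 fold change of each fat cell gene with its 95% interval, from one edgeR fit of 15 libraries, for KO against WT, HET against WT and KO against HET. Lpl in KO against WT is the one value past the threshold (2.03, interval 1.12 to 2.94); in HET against WT every interval crosses 0.

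Per kilobase of transcript, the WT order of mean levels was Fabp4 with 9.89, Plin4 with 8.43, Cfd with 4.51, Lpl with 2.49, Cidec with 1.12, Adipoq with 1.09, Plin1 with 0.269, Retn with 0.268, Lep with 0.213 and Pparg with 0.171 CPM per kilobase. In KO libraries it was Fabp4 with 46.8, Cfd with 12.6, Lpl with 10.1, Plin4 next, Adipoq with 4.65, Cidec with 3.47, Retn with 1.61, Lep with 1.31, Plin1 with 1.17 and Pparg with 0.453 CPM per kilobase. Compared within each library, neighbours in the WT order kept their places in all 5 libraries for Lpl over Cidec and Adipoq over Plin1, and in the KO order for Fabp4 over Cfd, Plin4 over Adipoq and Cidec over Retn. The other neighbours in the WT and KO orders changed places in 1 to 3 of the 5 libraries, so their order does not hold beyond the spread. The HET order was close to the WT order, from Fabp4 with 11.7 to Pparg with 0.176 CPM per kilobase. By mean level, Plin4 was the second of the 10 in WT and HET libraries and the fourth in KO libraries.

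The same libraries were high or low across the set. KO-695 was the highest of all 15 libraries for each of the 10 genes, and KO-696 the lowest KO library for each. HET-692 was the highest HET library and WT-719 the highest WT library for 9 of the 10, all but Plin4. The ratio of KO-695 to KO-696 was 2.18 for Plin4, 5.11 for Lpl, 5.52 for Pparg, 14.4 for Adipoq, 16.0 for Retn, 20.1 for Cidec, 21.7 for Cfd, 23.5 for Fabp4, 34.3 for Plin1 and 43.2 for Lep. For none of the 10 were all KO libraries above all WT libraries, which held for 2.84% of all genes tested, or above all HET libraries, which held for 2.18%. The edgeR estimate of variation between libraries of a genotype (biological coefficient of variation) was 43.9% for Lpl, 49.5% for Pparg, 62.3% for Cidec and 69.9% to 92.4% for Adipoq, Fabp4, Retn, Cfd, Plin1 and Lep, against 18.6% for Plin4 and a median of 13% over all genes tested.

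**Figure D3:**
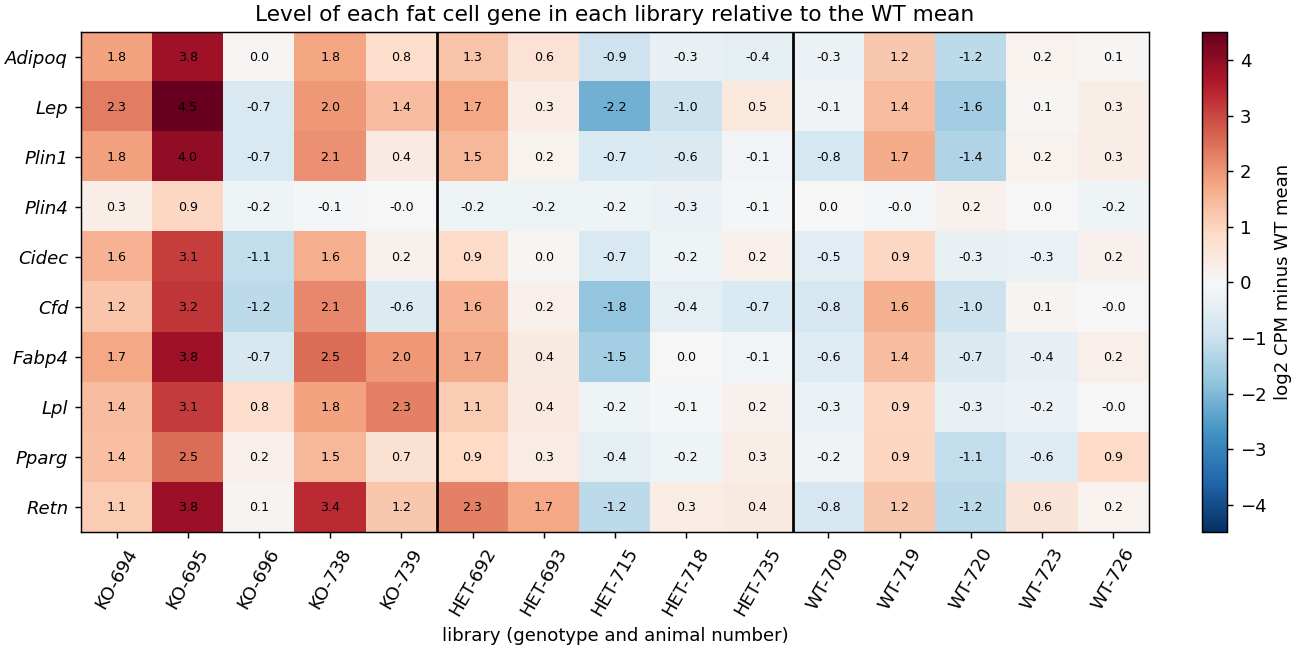
Log2 CPM of each fat cell gene in each library minus its mean in the WT libraries, with libraries in the order KO, HET, WT. The KO-695 column is raised for all 10 genes, the KO-696 column is the lowest of the KO columns, and HET-692 and WT-719 are the highest of their own groups for 9 genes.

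Over the 15 libraries, log2 CPM of the 10 genes correlated with Pearson's r of 0.40 to 0.97 across the 45 pairs, with a median of 0.89. Without Plin4 the 36 pairs had a median of 0.91 and a minimum of 0.71, and Plin4 with the other 9 had a median of 0.58. These coefficients describe points that share library, depth and scaling. Among the 19386 genes ranked by likeness to Adipoq, Plin1 was the first (r = 0.97, Spearman's rho = 0.92), Lep the second (r = 0.96, rho = 0.91), Fabp4 the third (r = 0.94, rho = 0.88) and Pparg the fourth (r = 0.93, rho = 0.88). With genotype means removed the coefficients were 0.97 for Plin1, 0.94 for Lep, 0.90 for Fabp4 and 0.89 for Pparg, and without the 2 libraries farthest from the median of Adipoq, KO-695 and KO-694, they were 0.93, 0.91, 0.90 and 0.86 over 13 libraries. Cfd, Cidec and Retn ranked 7, 8 and 9 and Lpl 13, while Plin4 ranked 300 (r = 0.65, rho = 0.26), and without the same 2 libraries its r was -0.23. The genes outside the set with the most similar profiles were Pnpla3, a lipase-like protein of the droplet (r = 0.93), Hp, the haemoglobin-binding protein haptoglobin (r = 0.92), Tshr, the thyrotropin receptor (r = 0.90), Cd36, a fatty acid transporter (r = 0.89), and Pck1, an enzyme of glyceride synthesis in fat cells (r = 0.89).

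For all but Plin4, the ratio to Adipoq varied less over the libraries than the level did. The CPM ratio of Plin1 to Adipoq lay between 0.167 and 0.466 in all 15 libraries, a 2.79-fold range with a median of 0.351, although Plin1 itself ranged over 0.107 to 7.13 CPM. Cfd stayed within a 3.51-fold range of Adipoq and Fabp4 within a 3.77-fold range. The ratio of Plin4 to Adipoq covered a 21.1-fold range, lowest in KO-695 at 5.2 and highest in WT-720 at 110. KO-739, the library with 6290 CPM of skeletal muscle genes, had the highest ratio to Adipoq of both Lpl, 21.7 against a median of 7.85, and Fabp4, 13.7 against 6.78, and the lowest of Cfd, 1.0 against 2.29. Lpl is also made by muscle, and the part of the muscle genes in these ratios was not tested. Without KO-739 the Lpl difference of KO against WT was 1.99 (adjusted p = 0.0342).

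**Figure D4:**
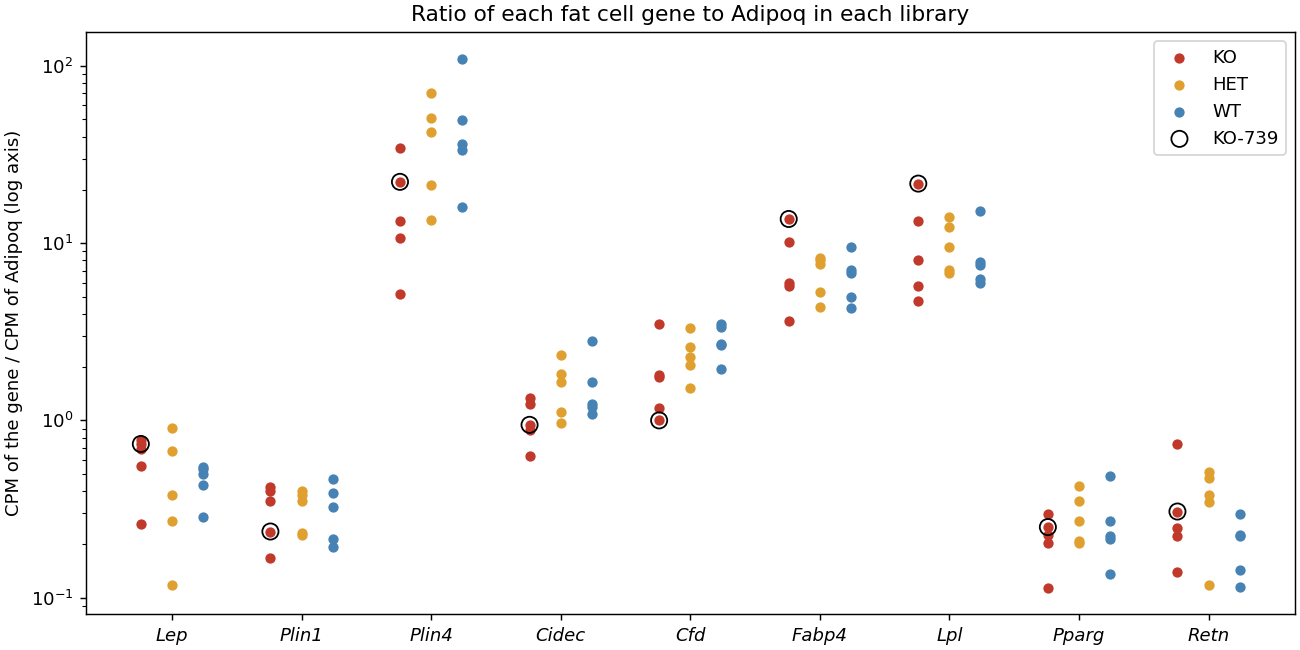
CPM of each fat cell gene divided by CPM of Adipoq (log axis), 1 point per library, KO, HET and WT side by side, with KO-739 ringed. Plin1 stays within 0.167 to 0.466, Plin4 spans 5.2 to 110, and the ringed library is the highest for Lpl (21.7) and Fabp4 (13.7).

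Other genes of the fat cell programme were read from lists chosen by function, with edgeR calls over all 19388 genes. Of all genes, 4.40% were called higher and 1.60% lower in KO against WT, to be read beside the counts per list. Among 16 tested genes listed for mature fat cells, 4 rose in KO against WT, 0 fell and the median was 0.56, beside -0.012 over all genes. Genes of this list may also be made by other cell types, whose part was not tested. The 4 were Aoc3, an amine oxidase (0.59 ± 0.08, adjusted p = 0.00336), Npr3, which clears natriuretic peptides (1.37 ± 0.25, adjusted p = 0.00834), Mrap, a partner of melanocortin receptors (1.95 ± 0.38, adjusted p = 0.0109), and Car3, a carbonic anhydrase of fat and muscle (4.60 ± 1.22, adjusted p = 0.0468). Car3 had 802 CPM in KO-739, 116 CPM in KO-695 and 5.29 to 49.3 CPM in the other KO libraries, against 3.07 to 18.7 CPM in HET libraries and 3.89 to 20 CPM in WT libraries, and was not called without KO-739 (2.55, adjusted p = 0.0913) or without KO-695 (adjusted p = 0.0702). Mrap had 0.627 to 2.01 CPM in KO, 0.301 to 0.853 CPM in HET libraries and 0.204 to 0.292 CPM in WT libraries. Aoc3 had 22.1 to 28.1 CPM in KO, 14.2 to 18.2 CPM in HET libraries and 15.6 to 17.2 CPM in WT libraries. Npr3 had 6.81 to 19.3 CPM in KO, 4.37 to 5.79 CPM in HET libraries and 3.69 to 5.82 CPM in WT libraries. The KO ranges of Mrap, Aoc3 and Npr3 thus lay above their WT ranges, which held for 2.84% of all genes tested. Those of Aoc3 and Npr3, but not Mrap, also lay above their HET ranges, which held for 2.18% of all genes. None of the 4 called genes kept the order of KO libraries seen for the 10 genes, with KO-695 the highest and KO-696 the lowest. Aoc3 was the lowest in KO-694 and Mrap in KO-739, and Npr3 and Car3 were the highest in KO-739. Slc2a4, the insulin-regulated glucose transporter, differed by -0.01 ± 0.49. Of the 16 genes, 10 had positive and 6 had negative differences. In KO against WT, DESeq2 (9.95% of all genes called) called 7 of the 16 higher and 0 lower, adding Cyp2e1, Pnpla3 and Trarg1. Limma (8.73% of all genes called) called 3 higher, Aoc3, Mrap and Npr3, and 1 lower, Adig (-0.26 ± 0.09 in edgeR, adjusted p = 0.101). In KO against HET, DESeq2 called 6 of the 16 higher (Aoc3, Car3, Cyp2e1, Npr3, Pnpla3 and Trarg1), beside 6.41% of all genes. Limma called 4 higher (Aoc3, Cyp2e1, Npr3 and Trarg1), beside 10.1% of all genes. Both called 1 lower in that comparison, Adig (-0.36 ± 0.09 in edgeR, adjusted p = 0.0525).

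Of 21 tested genes of fatty acid uptake and triglyceride or fatty acid synthesis, 3 rose in KO against WT, 0 fell and the median was -0.02. They were Gpihbp1, which holds Lpl on capillary endothelium (0.84 ± 0.17, adjusted p = 0.0112), Aqp7, a glycerol channel (1.81 ± 0.39, adjusted p = 0.0168), and Cd36 (2.01 ± 0.46, adjusted p = 0.0256). All 3 were also called without KO-695 and without KO-739. Cd36 had 8.64 to 55.9 CPM in KO, 5.43 to 12.5 CPM in HET libraries and 4.42 to 12.3 CPM in WT libraries, with KO-696 the lowest and KO-695 the highest KO library, the order also seen for the 10 genes. Aqp7 and Gpihbp1 did not keep that order. Aqp7 had 2.96 CPM in KO-696, near the 3.05 CPM of KO-695, and was the lowest in KO-738 at 0.626 CPM. Gpihbp1 was the lowest of the KO libraries in KO-694 at 3.1 CPM and the highest in KO-739 at 5.46 CPM. The synthesis genes were near 0 in KO against WT: Fasn, the fatty acid synthase, differed by -0.04 ± 0.15, Scd1, a desaturase, by 0.06 ± 0.15, and Acly, which supplies acetyl-CoA, by 0.02 ± 0.06. Of 13 tested lipid droplet and lipolysis genes, Plin2, a droplet coat found in most cell types, rose (0.85 ± 0.16, adjusted p = 0.00776), 0 fell and the median was 0.10. For this list, 1 of 13 is near the share of all genes. DESeq2 and limma also called Plin3, a perilipin of many cell types, lower (-0.25 ± 0.07 in edgeR, adjusted p = 0.0512). Plin2 also rose in KO against HET (0.67 ± 0.16, adjusted p = 0.0372). The fat cell lipases did not pass, with Lipe at 0.38 ± 0.23 and Pnpla2 at -0.14 ± 0.10.

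Of 13 tested adipokines and adipokine receptors, 2 rose and 0 fell, with a median of 0.18. They were Rarres2, the chemoattractant chemerin (0.38 ± 0.09, adjusted p = 0.0275), and Cdh13, a cadherin that binds adiponectin (0.99 ± 0.27, adjusted p = 0.0433), and neither was called without KO-695, where Rarres2 was at 0.34 and Cdh13 at 1.03. Cdh13 was also not called without KO-739 (0.68, adjusted p = 0.0703). DESeq2 also called Hp (2.03 ± 0.74 in edgeR, adjusted p = 0.116) and Sncg (1.47 ± 0.52 in edgeR, adjusted p = 0.1) higher. DESeq2 and limma also called Nampt, an enzyme of NAD synthesis, lower (-0.21 ± 0.07 in edgeR, adjusted p = 0.0763). The receptors Lepr (-0.02 ± 0.12), Adipor1 (-0.02 ± 0.04) and Adipor2 (-0.09 ± 0.05) did not pass. Of 15 tested transcription factors of fat cell differentiation, Ebf1 rose (0.63 ± 0.18, adjusted p = 0.0499), Stat5a fell (-0.50 ± 0.11, adjusted p = 0.0226) and the median was -0.15. Ebf1 was not called without KO-695 (0.67, adjusted p = 0.0722) or without KO-739 (0.40, adjusted p = 0.0789). Limma also called Klf15, of this list, lower (-0.29 ± 0.11 in edgeR, adjusted p = 0.121). Cebpa, the C/EBP factor of mature fat cells, differed by 0.25 ± 0.13. Of 11 tested fat progenitor and stromal genes, 4 rose, 0 fell and the median was 0.30. They were Pdgfrb, a growth factor receptor of perivascular cells (0.56 ± 0.11), Thy1, a surface protein of stromal cells (0.56 ± 0.11), Dpt, a matrix protein (0.89 ± 0.21), and Fap, a protease of fibroblasts (1.07 ± 0.27). Without KO-695, Pdgfrb and Thy1 were still called and Dpt (0.88) and Fap (1.12) were not, and without KO-739 Fap was not (0.83, adjusted p = 0.064). DESeq2 and limma also called Pi16, of this list, higher (0.56 ± 0.17 in edgeR, adjusted p = 0.0632). Both called Dpp4, a surface peptidase, lower (-0.30 ± 0.10 in edgeR, adjusted p = 0.0742). The brown and beige fat list could barely be read: 4 of 11 passed the low-count filter, with a median of 0.27 in KO against WT. In that comparison edgeR, DESeq2 and limma called 0 of them, with 2 at an unadjusted p under 0.05 in edgeR. Of these 2, Cox7a1 (1.48 ± 0.63) had 10.7 CPM in KO-739 and 0.971 to 1.54 CPM in the other KO libraries. Without KO-739 the list median was 0.12. Ucp1, the uncoupling protein that defines brown fat, had 68 counts in all 15 libraries together, at most 11 in one. In HET against WT 0 genes of any of these lists passed by any of the 3 tools. In KO against HET, edgeR called 2 of the 16 genes listed for mature fat cells, 2 of the 11 progenitor genes and, of the droplet genes, Plin2, all higher in KO. It called 0 of the uptake, adipokine, transcription factor and brown fat lists. Of these last 4 lists, DESeq2 (6.41% of all genes called) called Aqp7, Cd36, Pck1, Cdh13, Rarres2, Rbp4 and Tmem26 higher in KO. With limma (10.1% of all genes called), Aqp7, Cd36, Cdh13, Rarres2, Rbp4 and Tmem26 were higher and Elovl6 and Stat5a lower. Of the 11 progenitor genes, DESeq2 called 5 higher and 0 lower, and limma 5 higher and 1, Dpp4, lower.

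**Figure D5:**
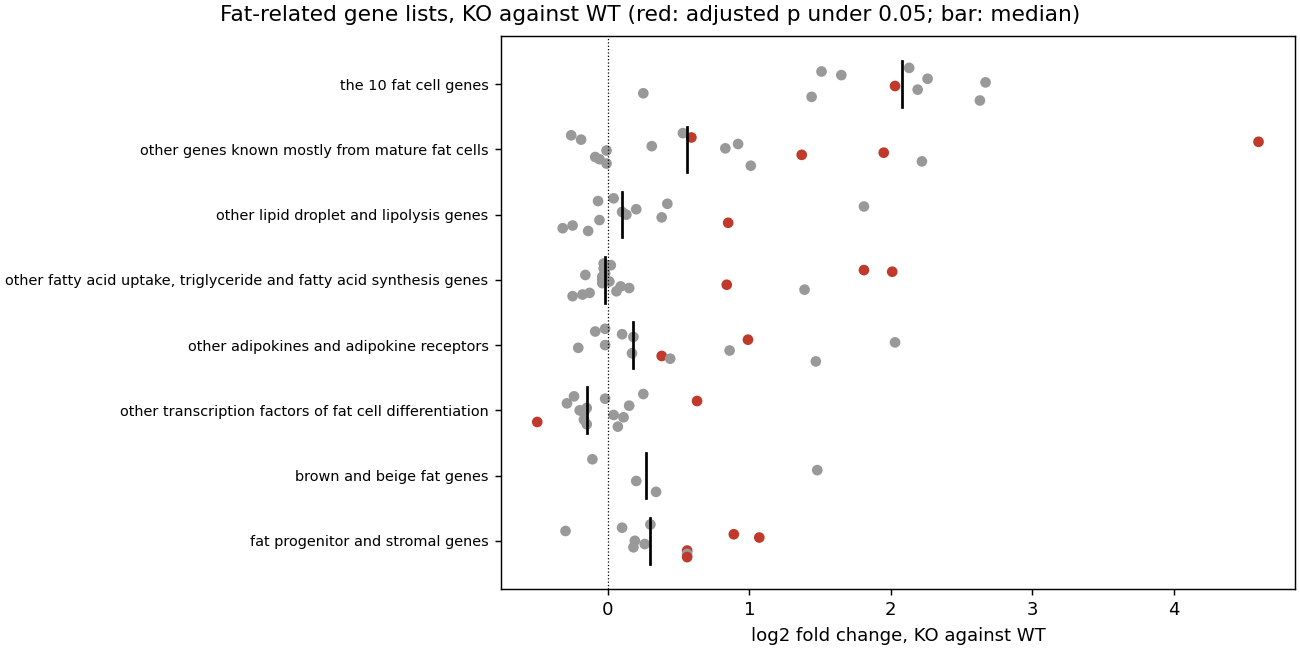
Log2 fold change, KO against WT, of the 10 fat cell genes and of 7 lists of related genes, 1 point per gene tested, red where the adjusted p is under 0.05, with a bar at the list median. The 10 genes have a median of 2.08 (1.08 without KO-695) with 1 red point, while the droplet, triglyceride and transcription factor lists centre near 0.

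Genes of other cell types moved in the same comparison. In KO against WT all 12 fibroblast genes rose (median 0.83), as did 10 of 12 endothelial genes (median 0.72), 6 of 12 macrophage genes (median 0.59) and 3 of 7 tested mesothelial genes (median 1.43), and 0 of any of these fell. Without KO-695, 6 fibroblast, 10 endothelial, 5 macrophage and 2 mesothelial genes were called, and without KO-739, 8, 8, 6 and 2, while without KO-738, 10 macrophage genes were called. In these fits 565, 847 and 2923 of all genes were called, against 1163 with every library, and the fibroblast median was 0.78 without KO-695, 0.82 without KO-739 and 0.97 without KO-738. Of 13 epididymal epithelium genes 0 passed by edgeR and 1, the water channel Aqp9, was lower by DESeq2 and by limma, with a median of 0.02 and 2 at an unadjusted p under 0.05. Without KO-738 edgeR called Aqp9 and Crisp1 lower, without KO-739 it called Lcn8 higher, and without KO-695 it called 0 of the 13. The summed endothelial genes were at 232 to 307 CPM in KO, 161 to 213 CPM in HET libraries and 155 to 190 CPM in WT libraries, and the fibroblast genes at 2090 to 3890 CPM in KO, 1860 to 2350 CPM in HET libraries and 1680 to 2170 CPM in WT libraries. No gene of these lists was at 0 in all libraries. The fat cell genes other than Plin4, which makes up much of their total, summed to 25.8 to 285 CPM in KO, 14.2 to 68.2 CPM in HET libraries and 16.3 to 58.9 CPM in WT libraries. For the endothelial genes the KO range lay above the WT range, while for these fat cell genes the sum of KO-696 lay within the WT range. Lpl, Cd36 and Aqp7 are among the genes also made by cells of these types. The part of those cells in the results was not tested for any gene named here, Fabp4, Aoc3, Gpihbp1 and Plin2 included. All 12 tested skeletal muscle genes had positive differences (median 5.51, with all 12 at an unadjusted p under 0.05), with 0 called by edgeR or limma and no p from DESeq2 for any of them. Without KO-739 their median was 0.42, and without KO-738 edgeR called 8 of the 12.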

How the data were processed

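RNA-seq read counts of 15 whole epididymis libraries, 5 each of Plag1 KO, HET and WT mice at 7 weeks, were used as deposited. Per the labels' protocols, 2 µg of DNase-treated RNA went into stranded mRNA libraries. The submitters' processing notes name FastQC, the aligner HISAT2 (2.0.5), featureCounts, Subread (1.4.6p5) and the build GRCm38.p6. The deposited values are whole counts per NCBI gene ID, not normalized. The strand setting and annotation release are not given in the sources used here. Of the 41591 IDs, RefSeq's gene table named 40290 and GENCODE vM21 named 87, and 1214 had no name.

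Counts were scaled by TMM to CPM, filtered with filterByExpr (19388 genes tested) and fitted once over all 15 libraries in edgeR 4.0.16 (R 4.3.3) by the quasi-likelihood test, with a mean per genotype and p-values adjusted by Benjamini-Hochberg. A gene was called at an adjusted p under 0.05. SE is the log2 fold change over the square root of F. Log2 CPM used a prior count of 2. Levels per kilobase used the longest GENCODE transcript paired with a RefSeq mRNA. The procedure was tested on simulated data. Alternatives were other scalings (DESeq2 median-ratio, upper-quartile, total counts), DESeq2 1.42.0, limma 3.58.1 voom with quality weights, other low-count filters, the compared genotypes alone, number range below 700 or not as a term or a subset, and libraries left out. The 10 genes and the 13 lists were chosen with earlier results of these data known. Genes outside the 10 are named where called in a list, where their profile is most like Adipoq, or as known representatives of a list chosen after their values were seen.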

Additional observations from a re-analysis of the deposited data

Results flagged for a closer look

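In 7 of the 30 groups of 5 libraries (10 genes in 3 genotypes), the highest library stood apart from the next by more of the group's range than the 95% limit for a group of that size. Both the highest and the lowest library of each group were checked. By chance about 1 of 20 groups passes that limit if values are normally spread. CPM was used without logs, where high values stand out more, so that rate may not hold here. KO-695 stood apart among KO libraries for Adipoq, at 17.9 CPM with the next library at 4.41, for Lep, at 14.0 CPM with the next at 3.06, and for Plin1, at 7.13 CPM with the next at 1.82. HET-692 did so for Plin1 among HET libraries, at 1.21 CPM with the next at 0.434. WT-719 did so among WT libraries for Cfd, at 10.2 CPM with the next at 3.65, for Fabp4, at 19.7 CPM with the next at 8.96, and for Lpl, at 18.4 CPM with the next at 9.49. The 10 genes share these libraries, so the 7 groups are not independent.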

How the results depend on the processing

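Of 783 values of the 10 genes under the alternatives, 728 kept their direction and their side of the threshold, 37 changed sign, 3 lost the call (Lpl, KO against WT, as given above) and 15 gained one. The number of the 10 called in KO against WT was 1, but 5 with DESeq2, 2 with limma, and 0 with the compared genotypes alone, with number range as a term or among numbers of 700 and above, where all genes called were 287, 177 and 0 against 1163; it was 1 with any 1 library left out. In KO against HET it was 0, but 1 under DESeq2's median-ratio scaling, upper-quartile scaling, total counts, DESeq2's own test or the 1 CPM filter (Lpl each time), 2 with limma, and 0 to 1 with a library left out, the 1 being Lpl without KO-738, HET-692 or WT-719. In HET against WT it was 0 throughout. The one change of sign in KO against WT was Plin4, -0.05 among numbers of 700 and above. In HET against WT, DESeq2 gave Plin1 -0.08 and limma gave Lep -0.14. With number range as a term Adipoq was -0.65, Lep -0.73, Plin1 -0.80, Cidec -0.31, Fabp4 -0.26 and Pparg -0.21. Among numbers of 700 and above Adipoq was -0.77, Lep -0.89, Plin1 -0.94, Cidec -0.28, Fabp4 -0.63, Lpl -0.11, Pparg -0.33 and Retn -0.28. With a library left out the HET against WT values ran from -0.34 to 0.54 for Adipoq, -0.55 to 0.74 for Lep, -0.70 to 0.70 for Plin1, -0.21 to 0.38 for Cidec, -0.81 to 0.57 for Cfd, -0.37 to 0.78 for Fabp4 and -0.18 to 0.40 for Pparg. The causes were not tested. The 1 CPM filter left out Pparg and Retn, and the fit of HET and WT alone left out Retn. Depth limits Lep, Plin1, Pparg and Retn most, with 2 or 3 counts in some libraries. Other gene lists were also fitted without KO-695, KO-738 or KO-739, chosen after seeing the data. No paired analysis was possible because the genotypes share no numbers in their labels.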
